A study of Rattus norvegicus with 6 samples.

Results

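The genes of protein folding, quality control and degradation in the endoplasmic reticulum (ER) were followed in a rat mast cell line stimulated through a receptor for fungal beta-glucan. The set of 34 genes covered chaperones, co-chaperones, disulfide-forming enzymes, the machinery of ER-associated degradation (ERAD), the sensors of the unfolded protein response with the transcription factor gene Xbp1, and the translocon. A gene was measured where the array annotation gave a probe set that symbol alone, and 30 of the 34 genes were, out of 14506 genes named on the arrays. Each of the 30 had 1 such probe set, so the rule of taking the brightest probe set of a gene was not needed. Ern1, Edem1, Derl2 and Ero1b were not named by the annotation and were not analysed here.

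RNA was hybridised to 6 rat Affymetrix arrays, 2 for each of 3 groups. All 3 groups were RBL-2H3 cells that stably overexpressed wild-type Dectin-1. The RBL-2H3 line comes from a rat basophilic leukaemia and serves as a model of mast cells. The groups were control cells with no stimulus, cells stimulated with Curdlan, an insoluble beta-glucan that binds Dectin-1, and cells pretreated with R406, an inhibitor of the kinase Syk, before the same Curdlan stimulus. The sources used here do not give the doses, the time of stimulation, the promoter and species of the receptor construct, or whether the line was a single clone. No cells given R406 without Curdlan were analysed here, so effects of R406 on unstimulated cells and on the Curdlan response cannot be told apart. Whether the 2 arrays of each group represent separate cultures is not stated in the labels, and p-values therefore measure the spread between arrays, which may be technical.

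Proteins that enter the ER through the Sec61 translocon are folded by the chaperone BiP and its partners, by lectin chaperones that bind sugar chains, and by enzymes that form disulfide bonds. Those that fail to fold are taken back to the cytosol, marked with ubiquitin by the Hrd1 complex and degraded. Unfolded protein activates the sensors IRE1, PERK and ATF6, which raise chaperone and ERAD genes through XBP1 and ATF6 and, through PERK, raise translation of ATF4. ATF4 is shared with sensors of other stresses, such as amino acid shortage. Mast cells carry a large secretory load of granule proteins.

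Signals are on the log2 scale as the authors normalized them, and a change is a difference of group means on that log2 scale with the standard error (SE) of a limma fit over all 29214 probe sets. A gene was called where its Benjamini-Hochberg adjusted p over all probe sets was under 0.05. Array medians lay between 7.204 and 7.241 and the mean signals of the 30 genes between 8.72 and 13.87. Of the 9 mast cell markers measured, Gata2, Ms4a2, Cpa3, Fcer1g, Hdc, Fcer1a, Kit and Mitf had mean signals of 11.44 to 13.59, and the tryptase gene Tpsab1 had 6.14. None of the 9 was called in any comparison (limma), and at an unadjusted p under 0.05 there were 3 with Curdlan and 2 in each other comparison. With Curdlan that is 33.3% against 14.4% of all probe sets. It is 22.2% against 22.0% between R406 plus Curdlan and Curdlan, and 22.2% against 20.4% between R406 plus Curdlan and control. The 5 macrophage and 3 lymphocyte markers measured had mean signals of 5.05 to 6.86, and the 6 fibroblast and epithelial markers of 3.92 to 8.16. None of these was called, where 0.551% to 4.02% of all probe sets were called per comparison and direction. All of them but Col1a1 and Col1a2 lay below the array medians, where a fall might not be seen.

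Promoter sequences are shown first, because they show which stress response elements the called and the uncalled genes carry. A RefSeq table of the rat assembly GRCr8 held a window for 27 of the 34 genes, from 250 bases before to 50 after the gene start. Manf, Pdia3, Pdia6, Derl1, Ern1, Atf6 and Sec61a1 had no window in it. Given here are the 250 bases before the start, 5′ to 3′ along the gene, of the 4 genes called in any comparison (Herpud1, Dnajb9, Derl3 and Eif2ak3), of the BiP gene Hspa5, and of Xbp1. Capitals mark matches, on either strand, to any of the 4 elements described after the sequences.
Herpud1, chr19:10614708-10614957, - strand: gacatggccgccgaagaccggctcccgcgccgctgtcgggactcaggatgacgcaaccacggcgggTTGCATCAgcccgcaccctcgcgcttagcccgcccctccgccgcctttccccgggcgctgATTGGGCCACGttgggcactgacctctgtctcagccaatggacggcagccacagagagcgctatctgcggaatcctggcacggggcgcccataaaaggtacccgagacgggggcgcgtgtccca
Dnajb9, chr6:67002052-67002301, - strand: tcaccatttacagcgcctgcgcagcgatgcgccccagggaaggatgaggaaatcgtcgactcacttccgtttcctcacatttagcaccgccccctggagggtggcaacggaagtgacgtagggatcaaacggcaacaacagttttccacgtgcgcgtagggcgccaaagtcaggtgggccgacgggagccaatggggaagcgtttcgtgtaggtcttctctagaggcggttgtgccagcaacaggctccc
Derl3, chr20:12766466-12766715, - strand: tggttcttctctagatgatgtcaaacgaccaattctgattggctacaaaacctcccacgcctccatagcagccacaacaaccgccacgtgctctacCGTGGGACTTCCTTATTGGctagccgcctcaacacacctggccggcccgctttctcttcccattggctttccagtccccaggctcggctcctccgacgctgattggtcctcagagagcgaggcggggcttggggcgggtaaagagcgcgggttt
Eif2ak3, chr4:104363622-104363871, + strand: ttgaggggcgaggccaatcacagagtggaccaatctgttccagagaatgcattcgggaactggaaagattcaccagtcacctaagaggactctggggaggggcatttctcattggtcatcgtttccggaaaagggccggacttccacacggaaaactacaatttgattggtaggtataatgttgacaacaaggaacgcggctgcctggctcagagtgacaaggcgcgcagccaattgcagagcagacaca
Hspa5, chr3:38452766-38453015, + strand: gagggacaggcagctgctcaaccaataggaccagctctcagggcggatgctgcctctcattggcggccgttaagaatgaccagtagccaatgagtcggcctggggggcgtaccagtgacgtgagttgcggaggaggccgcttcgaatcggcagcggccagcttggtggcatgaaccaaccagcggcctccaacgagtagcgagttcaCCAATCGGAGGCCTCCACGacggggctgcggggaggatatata
Xbp1, chr14:84604373-84604622, + strand: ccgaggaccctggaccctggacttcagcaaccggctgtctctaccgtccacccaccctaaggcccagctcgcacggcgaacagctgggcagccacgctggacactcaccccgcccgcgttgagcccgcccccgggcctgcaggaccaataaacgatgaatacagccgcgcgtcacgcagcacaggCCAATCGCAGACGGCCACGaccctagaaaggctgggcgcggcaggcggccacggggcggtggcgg

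The ER stress response element, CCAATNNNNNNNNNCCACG, is known as the site of ATF6 with NF-Y. Of the 27 genes, 9 held it in the window: Hspa5, Hsp90b1, Calr, Canx, Dnajc3, Creld2, Derl3, Xbp1 and Ero1b. It was in 22 of 33469 windows of all rat genes, or 0.0657%, against 33.3% of this set. The shorter form, element II, reads ATTGGNCCACG and was in Herpud1, Hyou1 and Dnajb11, which is 11.1% of the set against 0.0508% of all windows. Together 12 of the 27 genes, or 44.4%, held either form, against 0.117% of all windows. Shares of the set count genes, while those of all rat genes count windows. The set consists of chaperone and ERAD genes of the kind that ATF6 and XBP1 are known to raise. These shares therefore describe the set and do not test for an excess. The unfolded protein response element TGACGTGG, a site of XBP1 and ATF6, was in Hyou1, where it overlapped an element II, and in Ube2j1, 7.41% of the set against 0.595% of all windows. The fourth element, TGATGNAA, is the core of the C/EBP-ATF composite element through which ATF4 acts. In this set it was in Herpud1 alone, and a share of 3.70% of the set lies near the 3.98% of all windows. In Herpud1 it lay on the opposite strand at positions -184 to -177 from the start, with element II at positions -124 to -114. Dnajb9 and Eif2ak3 held 0 matches to these letters in the window. These matches describe sequence and were not tested as binding sites.

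**Figure D1:**
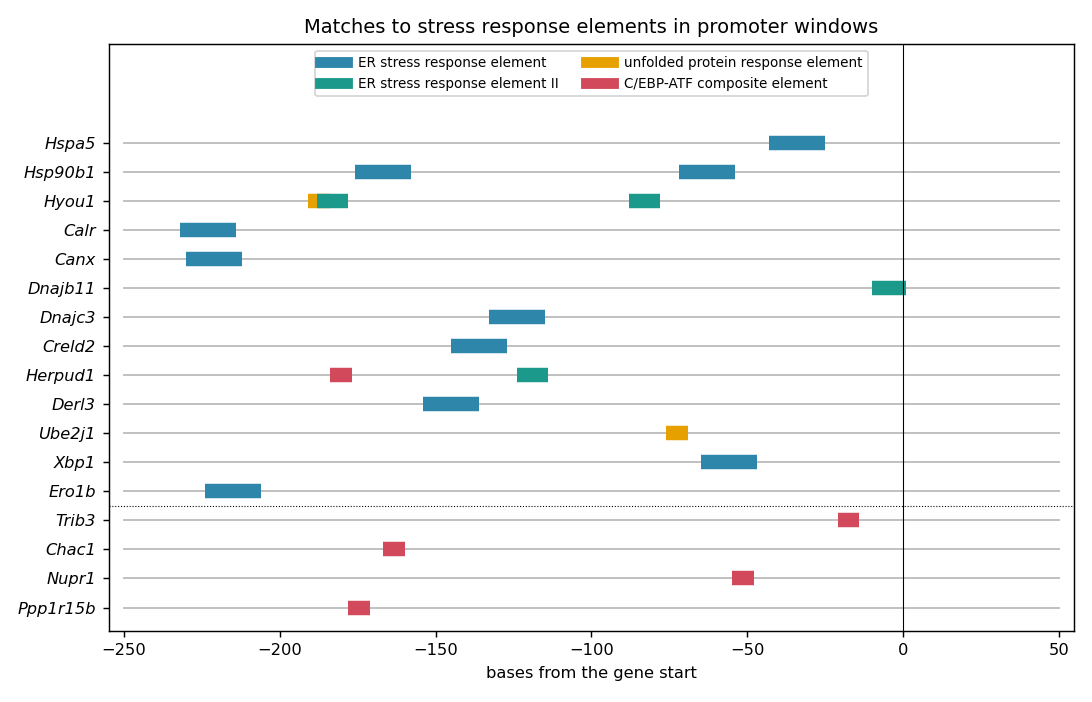
Position of each match to the 4 elements, in bases from the gene start (x axis, 0 at the start), for the genes with a match (rows). Above the dotted line are the ER folding and degradation genes, where the blue and green elements prevail, and below it 4 genes of stress sensing and output with a composite element (red), which in the upper part is seen at Herpud1.

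Over the 6 arrays 25 of the 30 genes ranged over less than 0.2 log2 units, and the other 5 were Herpud1, Derl3, Dnajb9, Eif2ak3 and Syvn1, of which all but Syvn1 were called in at least 1 comparison. With Curdlan 1 of 30 genes, Herpud1, was called lower and 0 were called higher (limma). That is 3.33% of the set, against 0.551% of all probe sets called lower and 1.04% called higher. At an unadjusted p under 0.05 there were 4 of the 30, or 13.3%, and 14.4% of all probe sets. With R406 before Curdlan, 4 of 30 genes were called higher than with Curdlan alone and 0 lower, 13.3% of the set against 4.02% of all probe sets called higher and 3.23% called lower. At an unadjusted p under 0.05 there were 7 of 30, or 23.3%, near the 22.0% of all probe sets. Between R406 plus Curdlan and control, 2 of 30 were called higher and 0 lower, 6.67% of the set against 1.44% higher and 0.791% lower among all probe sets. At an unadjusted p under 0.05 there were 4 of 30, or 13.3%, against 20.4% of all probe sets. The median change of the 30 genes was -0.02 with Curdlan, 0.04 between R406 plus Curdlan and Curdlan, and 0.02 between R406 plus Curdlan and control. Over all probe sets the medians were -0.011, -0.002 and -0.010. The comparisons share arrays, so the values of a gene in them are not independent. By mean signal the 30 genes ranked from percentile 64.7 upwards, with a median of 92.4. All probe sets are thus not a background of like signal. A fit of only the probe sets above the median signal kept all 30 genes. In it 1572 probe sets were called with Curdlan against 465 in the main fit. Between R406 plus Curdlan and Curdlan there were 3717 against 2118. With fewer probe sets in that fit, the shares called were higher than those given above for all probe sets. Of the 30 genes, 2 were called lower and 0 higher with Curdlan in that fit. Between R406 plus Curdlan and Curdlan 5 were called higher and 0 lower. Whether the set exceeds probe sets of like signal was not tested.

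**Figure D2:**
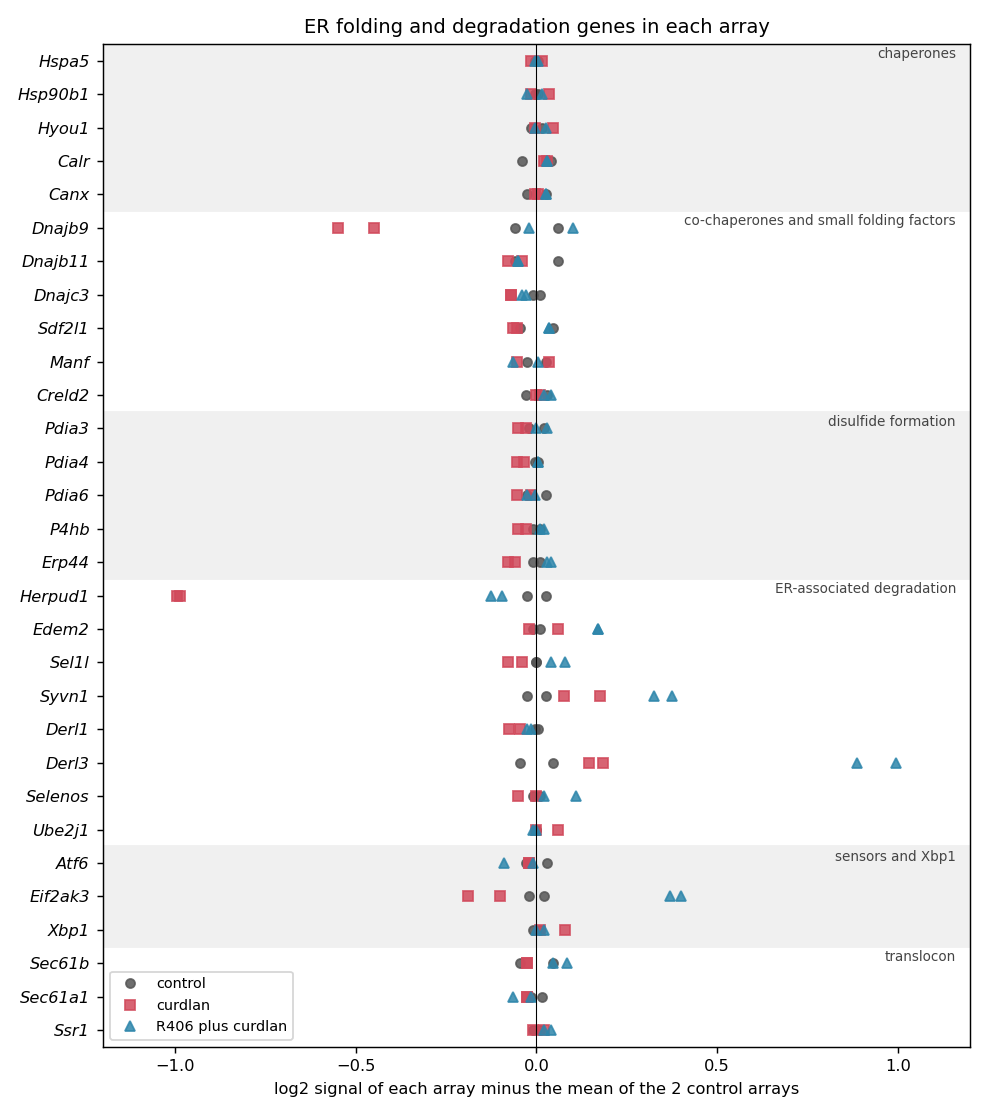
Log2 signal of each array minus the mean of the 2 control arrays (x axis) for the 30 measured genes (rows, shaded by role), with circles for control, squares for Curdlan and triangles for R406 plus Curdlan. Most rows lie within a narrow band around 0, while Curdlan arrays of Herpud1 and Dnajb9 lie to the left and R406 arrays of Derl3 and Eif2ak3 to the right.

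The main chaperones were level in all 6 arrays. Hspa5 encodes BiP, an ER heat shock protein that binds unfolded chains and holds the stress sensors inactive. Its log2 signals were 13.87 and 13.88 in control, 13.86 and 13.89 in Curdlan, and 13.88 and 13.87 in R406 plus Curdlan arrays. All 6 arrays thus lay within 0.03 log2 units and the groups overlapped. Hsp90b1, the ER paralogue of a cytosolic chaperone, Hyou1, a large chaperone that recharges BiP, and the calcium-binding lectin chaperones Calr and Canx ranged over 0.06 to 0.09 log2 units. The changes of these 5 genes with Curdlan lay between 0.00 and 0.02, with 95% intervals inside -0.11 to 0.15. Under R406 compared with Curdlan alone they lay between -0.01 and 0.02, with intervals inside -0.13 to 0.14. All 5 held an ER stress response element of one form or the other in the window.

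Of the 30 genes 9 had a mean signal of at least 13, against a highest value of 14.37 to 14.41 on any array, and 0 of the 9 were called. Among the 706 probe sets of the array at or above that signal, 0.283% were called with Curdlan and 0.425% between R406 plus Curdlan and Curdlan. Of all probe sets 1.04% were called higher and 0.551% lower with Curdlan. Between R406 plus Curdlan and Curdlan 4.02% were higher and 3.23% lower, so calls were rarer at high signal. Changes of the 706 ran from -0.16 to 0.41 with Curdlan and from -1.16 to 0.17 between R406 plus Curdlan and Curdlan. Whether high signals understate the changes of these genes was not tested.

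The co-chaperones and small folding factors were mostly level as well, with Dnajb9 apart. Dnajb9 encodes ERdj4, a partner of BiP that is a known target of XBP1 and helps to return IRE1 to its inactive form. Its log2 signals were 10.05 and 9.93 in control, 9.44 and 9.54 in Curdlan, and 9.97 and 10.09 in R406 plus Curdlan arrays. Both Curdlan arrays were the lowest and did not overlap either other group, while control and R406 plus Curdlan arrays overlapped. The change with Curdlan was -0.50 ± 0.0741 (SE), 70.7% of the control level, and did not pass (adjusted p = 0.0549). Under R406 Dnajb9 rose by 0.54 ± 0.0741 compared with Curdlan alone, 1.46-fold (adjusted p = 0.0197), and its difference from control was 0.04 (95% interval -0.15 to 0.23). The Curdlan change passed after quantile normalization (adjusted p = 0.0392), with a mean-variance trend (0.00477) and in a fit restricted to the brighter probe sets (0.0109). It did not pass after median centring (0.0664), in a fit of the 4 arrays compared (0.134) or with a block for replicate number (0.134). In the fits without a single array the Curdlan change lay between -0.56 and -0.44. With the replicate block the rise under R406 had an adjusted p of 0.0565. The rise did not pass without Curdlan replicate 1 (0.101) or 2 (0.0693) or without R406 plus Curdlan replicate 1 (0.0839) or 2 (0.126).

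The other 5 genes of that role were Dnajb11 and Dnajc3, co-chaperones of BiP, Sdf2l1, which works with Dnajb11, and Manf and Creld2, secreted or ER-resident factors induced by ER stress. Each ranged over 0.07 to 0.14 log2 units across the 6 arrays. Dnajb11 had the widest range of them through a single control array, at 12.03 against 11.89 to 11.93 in the other 5 arrays. Sdf2l1 had 11.44 and 11.53 in control, 11.42 and 11.43 in Curdlan and 11.52 in both R406 plus Curdlan arrays, so both Curdlan arrays lay just below the others, and the control and R406 plus Curdlan arrays overlapped. None of the 5 was called in any of the 3 comparisons (limma), and none had an unadjusted p under 0.05.

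The disulfide-forming enzymes did not pass in any comparison. Pdia3 assists the folding of glycoproteins bound by Calr and Canx, P4hb is the founding protein disulfide isomerase, Pdia4 and Pdia6 are its relatives, and Erp44 retains oxidases and other clients in the early secretory pathway. With Curdlan the changes of these 5 genes lay between -0.07 and -0.04, with 95% intervals inside -0.18 to 0.08. Compared with Curdlan alone they lay between 0.02 and 0.10 under R406, with intervals inside -0.10 to 0.21. Erp44 showed the widest spread, with 12.61 and 12.59 in control, 12.54 and 12.52 in Curdlan and 12.63 and 12.64 in R406 plus Curdlan arrays. Its 3 groups did not overlap, but its adjusted p was 0.547 with Curdlan and 0.264 under R406. With a mean-variance trend in the fit, the Erp44 change under R406 of 0.10 passed (adjusted p = 0.0316).

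**Figure D3:**
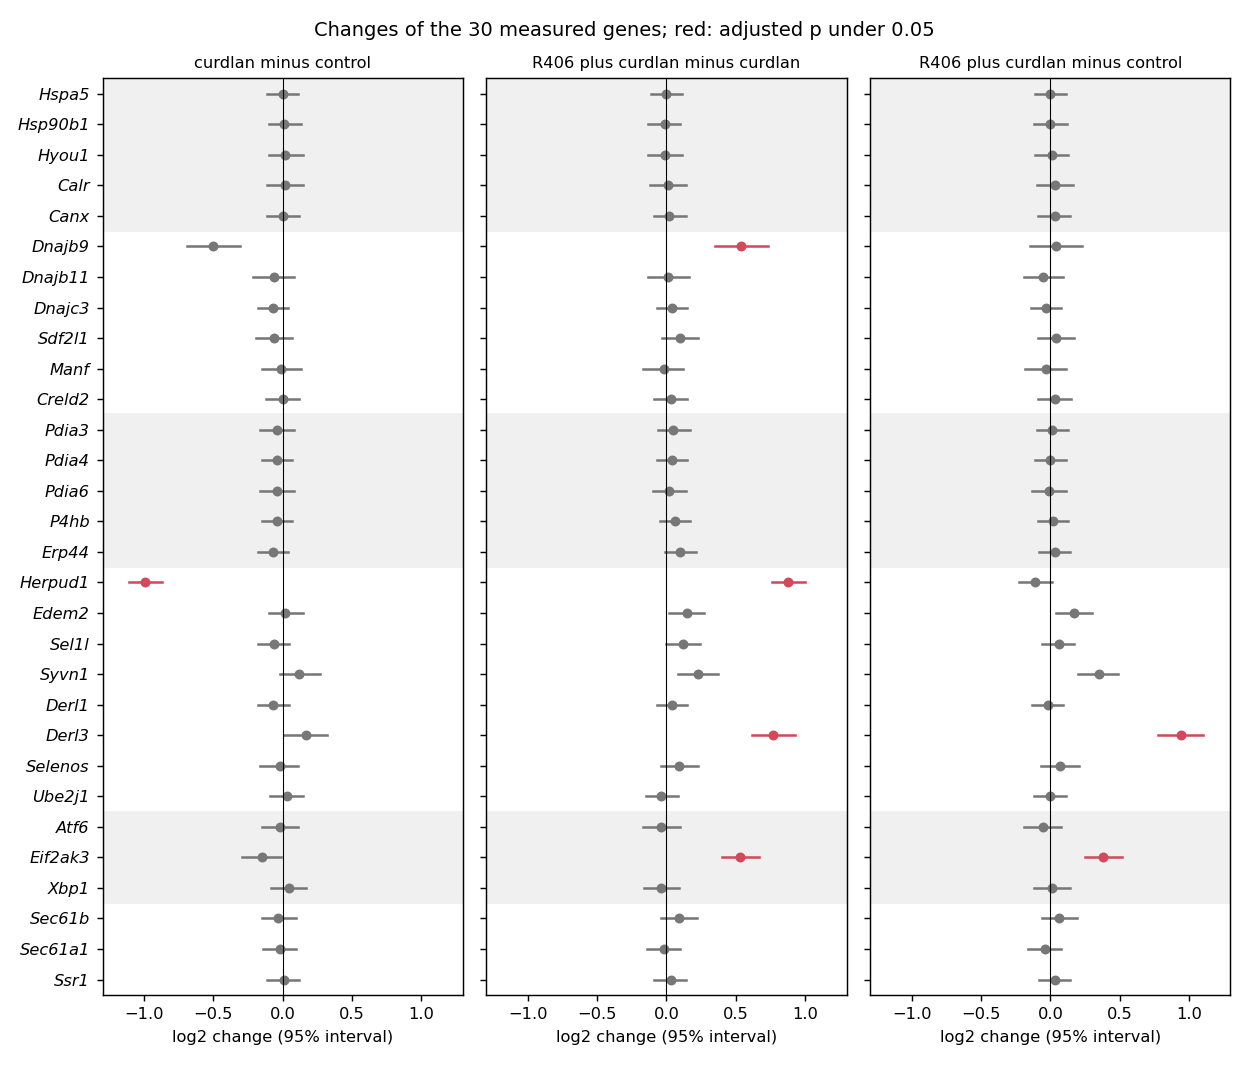
Log2 change of each of the 30 genes (points) with its 95% interval (lines) in the 3 comparisons, 2 arrays per group, with called genes in red. Herpud1 is called with Curdlan, Herpud1, Dnajb9, Derl3 and Eif2ak3 under R406 compared with Curdlan, and Derl3 and Eif2ak3 compared with control.

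The ERAD genes held the largest changes of the set. Herpud1 encodes an ER membrane protein with a ubiquitin-like domain that joins the Hrd1 complex and is turned over rapidly. Its log2 signals were 12.31 and 12.26 in control, 11.29 and 11.30 in Curdlan, and 12.16 and 12.19 in R406 plus Curdlan arrays. Both Curdlan arrays lay far below all others, and no groups overlapped. Herpud1 fell by 0.99 ± 0.0462 with Curdlan, to 50.3% of the control level (adjusted p = 0.00309). Under R406 it rose by 0.88 ± 0.0462 compared with Curdlan alone, 1.84-fold (adjusted p = 0.00203). What remained against control was -0.11 (95% interval -0.23 to 0.01), which did not pass (adjusted p = 0.271). Both calls held in every one of the 6 fits without a single array, with adjusted p between 0.0254 and 0.0480 for the fall and between 0.0112 and 0.0354 for the rise.

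Derl3 followed another pattern. It encodes a derlin, a membrane protein of the channel through which ERAD substrates leave the ER. Its log2 signals were 8.4 and 8.31 in control, 8.50 and 8.54 in Curdlan, and 9.24 and 9.35 in R406 plus Curdlan arrays. The R406 arrays were above all others. With Curdlan the change was 0.17 ± 0.0616 (adjusted p = 0.318). Derl3 rose by 0.77 ± 0.0616 under R406 compared with Curdlan alone (adjusted p = 0.00532) and by 0.94 ± 0.0616, 1.92-fold, compared with control (adjusted p = 0.00894). With a block for replicate number the rise from control had an adjusted p of 0.052. The first rise did not pass without R406 plus Curdlan replicate 2 (0.0550). The second did not pass without control replicate 1 (0.0768) or 2 (0.0844) or without R406 plus Curdlan replicate 1 (0.0889) or 2 (0.102).

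The other 6 ERAD genes did not pass in any comparison. Syvn1, which encodes the ubiquitin ligase Hrd1 itself, had log2 signals of 11.34 and 11.39 in control, 11.44 and 11.54 in Curdlan, and 11.69 and 11.74 in R406 plus Curdlan arrays, with no overlap between groups. Its change was 0.12 ± 0.0571 with Curdlan (adjusted p = 0.424), 0.23 ± 0.0571 under R406 compared with Curdlan (adjusted p = 0.0927), and 0.35 ± 0.0571 between R406 plus Curdlan and control (adjusted p = 0.0560). Edem2, which starts the trimming of sugar chains that marks glycoproteins for ERAD, had 11.43 in both R406 plus Curdlan arrays against 11.24 to 11.32 in the other 4, a difference from control of 0.17 (95% interval 0.04 to 0.30, adjusted p = 0.158). Sel1l, the adaptor of Hrd1, had a change of 0.12 under R406 compared with Curdlan (95% interval 0.00 to 0.24, adjusted p = 0.212). With a mean-variance trend in the fit, Syvn1 (adjusted p = 0.0110) and Edem2 (0.0393) also passed under R406 compared with Curdlan. Derl1, Selenos, a selenoprotein that links derlins to the extracting ATPase, and Ube2j1, a ubiquitin-conjugating enzyme of the ER membrane, ranged over 0.07 to 0.17 log2 units across the 6 arrays. Under R406 compared with Curdlan their changes were 0.04 for Derl1, 0.09 for Selenos and -0.04 for Ube2j1, and compared with control -0.02, 0.07 and 0.00. Syvn1, Edem2 and Sel1l are given in more detail because of their values, so they do not stand for the direction of the 6.

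**Figure D4:**
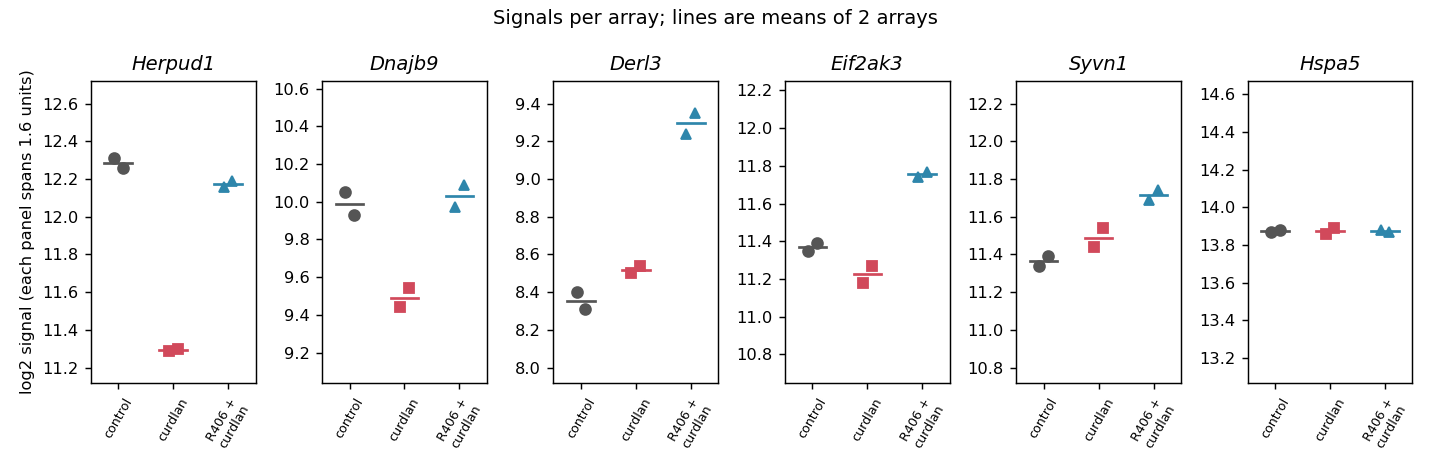
Log2 signal of each array (points) and mean of 2 arrays (lines) in control, Curdlan and R406 plus Curdlan cells for the 4 called genes, for Syvn1 and for Hspa5, each panel spanning 1.6 log2 units. Herpud1 and Dnajb9 are lowest in Curdlan arrays, Derl3, Eif2ak3 and Syvn1 highest in R406 plus Curdlan arrays, and Hspa5 stays at 13.86 to 13.89.

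Among the sensors 1 of the 2 measured changed. Eif2ak3 encodes PERK, the ER kinase that slows translation by phosphorylating eIF2alpha. Its log2 signals were 11.35 and 11.39 in control, 11.18 and 11.27 in Curdlan, and 11.74 and 11.77 in R406 plus Curdlan arrays. The groups did not overlap, with Curdlan lowest and R406 plus Curdlan highest. The change with Curdlan was -0.15 ± 0.0538 (adjusted p = 0.306). Eif2ak3 rose by 0.53 ± 0.0538 under R406 compared with Curdlan alone, 1.45-fold (adjusted p = 0.00911), and by 0.38 ± 0.0538 compared with control (adjusted p = 0.0411). The rise from control had an adjusted p of 0.0731 in a fit of the 4 arrays compared and 0.0768 with a block for replicate number. The first rise did not pass without Curdlan replicate 1 (0.0549) or without R406 plus Curdlan replicate 1 (0.0770) or 2 (0.0870), and the second in none of the 6 fits without an array (0.0731 to 0.252).

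Atf6, the sensor that is cut in the Golgi to release a transcription factor, had 11.55 and 11.49 in control, 11.50 in both Curdlan arrays, and 11.43 and 11.51 in R406 plus Curdlan arrays, and its groups overlapped. Xbp1, whose transcript is spliced by IRE1, had 13.47 and 13.45 in control, 13.54 and 13.47 in Curdlan, and 13.48 and 13.46 in R406 plus Curdlan arrays. The Xbp1 change was 0.05 with Curdlan (95% interval -0.08 to 0.17) and -0.04 under R406 compared with Curdlan (95% interval -0.16 to 0.09). A probe set summed over a transcript does not separate spliced from unspliced Xbp1. The translocon genes Sec61b and Sec61a1, which encode subunits of the channel, and Ssr1, which encodes a subunit of an associated complex, ranged over 0.05 to 0.12 log2 units. With Curdlan the 3 changes lay between -0.03 and 0.01, and under R406 compared with Curdlan between -0.02 and 0.09.

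The rest of the pathway was read from 5 further lists of genes. In the list of other folding and redox genes 0 of 39 were called with Curdlan, against 1.04% of all probe sets higher and 0.551% lower. Under R406 2 were lower than with Curdlan alone, 5.13% of the list against 3.23% of all probe sets. Fkbp7, a peptidyl-prolyl isomerase of the ER, had 9.33 and 9.23 in control, 9.69 and 9.92 in Curdlan, and 8.88 and 8.96 in R406 plus Curdlan arrays. Fkbp7 fell by 0.89 ± 0.0931 under R406 (adjusted p = 0.00981), while its change with Curdlan was 0.52 ± 0.0931 (adjusted p = 0.0807). Mogs, the glucosidase that starts the trimming of sugar chains, fell by 0.37 ± 0.0659 under R406 (adjusted p = 0.0373), and its change with Curdlan was 0.32 ± 0.0659 (adjusted p = 0.108). In both genes the Curdlan arrays were the highest, where those of Herpud1 were the lowest. Without a single array the adjusted p under R406 ran from 0.0287 to 0.0812 for Fkbp7 and from 0.0404 to 0.203 for Mogs, and it failed for Fkbp7 without R406 plus Curdlan replicate 1 (0.0812) or 2 (0.0744) and for Mogs without any Curdlan or R406 plus Curdlan array (0.137 to 0.203).

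Of 27 other ERAD genes 1 was called, Ube2g2, which encodes a ubiquitin-conjugating enzyme of ERAD. It had 10.72 and 10.68 in control, 11.04 and 11.05 in Curdlan, and 10.59 and 10.52 in R406 plus Curdlan arrays. Ube2g2 rose by 0.35 ± 0.0488 with Curdlan (adjusted p = 0.0490) and fell by 0.49 ± 0.0488 under R406 compared with Curdlan (adjusted p = 0.00879). As 1 of 27 it makes 3.7% of the list in each of these 2 comparisons. Between R406 plus Curdlan and control 0 of 27 were called. Of all probe sets 1.04% were called higher with Curdlan and 3.23% lower under R406. The rise did not pass in any of the 6 fits without an array (0.142 to 0.221), and the fall did not in the 4 that lacked a Curdlan or R406 plus Curdlan array, where its adjusted p reached 0.0836. Of 28 other translocation and glycosylation genes and 25 genes of ER to Golgi transport 0 were called in any comparison (limma). Of all probe sets 0.551% to 4.02% were called per comparison and direction. At an unadjusted p under 0.05 these 2 lists had 0 and 2 genes with Curdlan and 0 and 1 under R406 compared with Curdlan. With Curdlan that is 0% and 8.0%, against 14.4% of all probe sets. Under R406 it is 0% and 4.0%, against 22.0%. Between R406 plus Curdlan and control the 2 lists had 2 and 3 such genes, or 7.14% and 12.0%, against 20.4%. The medians of the 2 lists were -0.02 and -0.03 with Curdlan and 0.03 and 0.00 under R406 compared with Curdlan.

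The list of other stress sensing and output held the largest changes of the 5 lists. Of 27 genes 6 were lower with Curdlan and 0 higher, 6 were higher and 0 lower under R406 compared with Curdlan, and 4 were lower and 0 higher between R406 plus Curdlan and control. That is 22.2% of the list lower with Curdlan against 0.551% of all probe sets, 22.2% higher under R406 against 4.02%, and 14.8% lower than control against 0.791%. The list was chosen with earlier results of these data known, so these shares describe it and do not test for an excess. At an unadjusted p under 0.05 there were 10 of 27 in each of the first 2 comparisons, or 37.0%, against 14.4% and 22.0% of all probe sets, and 9 of 27 in the last, or 33.3%, against 20.4%. The list median was -0.04 with Curdlan and 0.04 under R406 compared with Curdlan. The 6 called genes were Ddit4, Trib3, Chac1, Atf3, Ddit3 and Atf4. Other genes of the list that are known to be induced in the stress response were not called with Curdlan, with changes of -0.26 for Ppp1r15a (adjusted p = 0.122), -0.02 for Nupr1 (0.967) and 0.10 for Stc2 (0.524). Mean signals were 8.47 for Ppp1r15a, 6.34 for Nupr1 and 7.38 for Stc2. Those of Nupr1 and Stc2 lay below or near the array medians, where a fall might not be seen. Atf4 itself had 11.95 and 11.81 in control, 11.07 and 11.02 in Curdlan, and 12.09 and 12.05 in R406 plus Curdlan arrays, the same order of Curdlan below both others as in Herpud1 and Dnajb9. Ddit3, which encodes CHOP, had 9.27 and 9.18, then 8.03 and 8.19, then 8.93 and 8.98 in the same order of groups. Between R406 plus Curdlan and control, the difference was 0.19 for Atf4 (adjusted p = 0.187) and -0.27 for Ddit3 (adjusted p = 0.142), as it was -0.11 for Herpud1. By contrast Trib3 at -1.18 ± 0.0648, Atf3 at -1.02 ± 0.135, Ddit4 at -0.95 ± 0.0911 and Chac1 at -0.93 ± 0.0728 were still called lower than control under R406 plus Curdlan (adjusted p 0.00681 to 0.0356). None of these 4 calls held without a control or an R406 plus Curdlan array (0.0587 to 0.221). Of the falls with Curdlan, that of Atf4 held in none of the 6 fits without an array (0.0589 to 0.122), that of Atf3 failed without either Curdlan or either R406 plus Curdlan array (0.0640 to 0.123), and that of Ddit3 without either control array or Curdlan replicate 1 (0.0552 to 0.0804). Of the rises under R406 compared with Curdlan, that of Atf3 failed without any Curdlan or R406 plus Curdlan array (0.146 to 0.211), and those of Chac1 and Ddit3 without either R406 plus Curdlan array (0.0598 to 0.0675). The rise of Atf3 had an adjusted p of 0.0499 in the main fit and did not pass with a block for replicate number (0.0634, limma). With that block Atf3 (0.0691), Ddit4 (0.0691) and Chac1 (0.0532) were no longer called lower than control, while Trib3 was (0.0454). Whether Herpud1 differs from Trib3, Atf3, Ddit4 and Chac1 in its remaining difference from control was not tested.

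**Figure D5:**
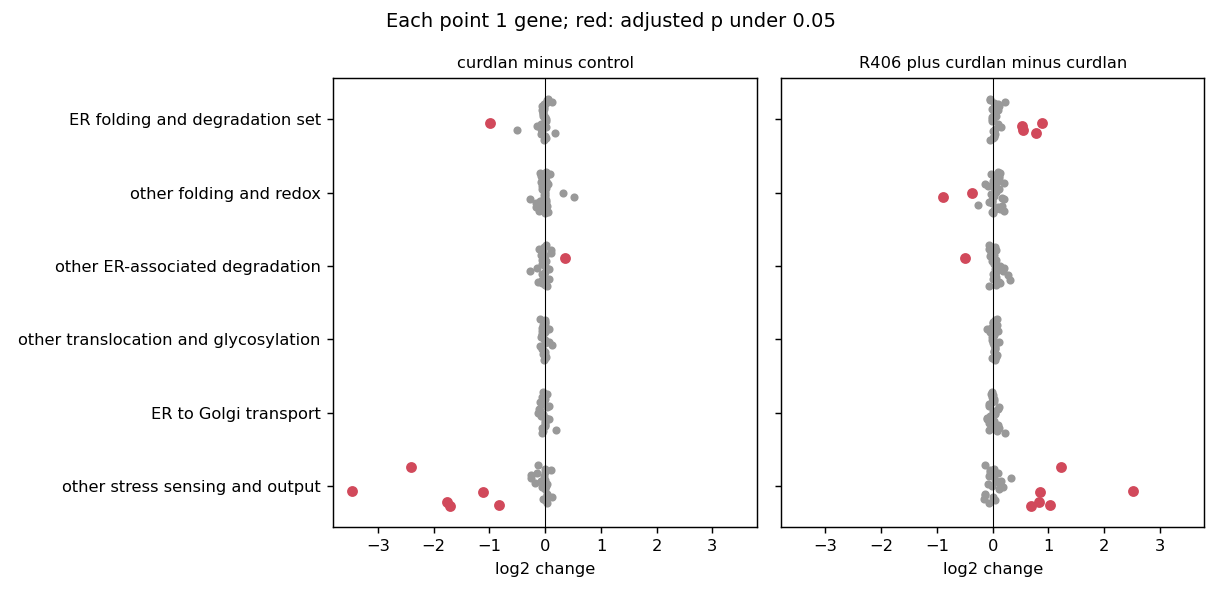
Log2 change of each gene (points, called genes in red) in the set and in 5 further lists of the secretory pathway (rows), with Curdlan compared with control (left) and R406 plus Curdlan compared with Curdlan (right). The called genes of stress sensing and output reach -3.47 with Curdlan and 2.52 under R406, while translocation, glycosylation and ER to Golgi transport hold no red point.

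Of 26 genes of the stress list with a promoter window, 0 held either ER stress response element, and 4, or 15.4%, held the composite element against 3.98% of all windows. The list was chosen for stress sensing and output, so this share describes it and does not test for an excess. The 4 were Trib3, Chac1, Nupr1 and Ppp1r15b, of which Trib3 and Chac1 were called. Their stretches around the match, 5′ to 3′ along the gene with the match in capitals, are given to set beside the Herpud1 window.
Trib3, chr3:161275534-161275580, - strand: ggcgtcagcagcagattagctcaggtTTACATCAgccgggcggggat
Chac1, chr3:126795938-126795997, + strand: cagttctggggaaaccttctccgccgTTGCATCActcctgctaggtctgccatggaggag

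In Trib3 the match lay at positions -21 to -14 and in Chac1 at -167 to -160. Read on its own strand it was TGATGCAA in Herpud1 and Chac1 and TGATGTAA in Trib3. Set beside the changes, the 11 measured genes with either ER stress response element comprised Herpud1, which fell with Curdlan and rose under R406, Derl3, which rose under R406, and 9 that were called in no comparison. Dnajb9 and Eif2ak3 changed under R406 without a match in the window.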

How the data were processed

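The deposited values are log2 signals, 1 per probe set and array, which the authors made in Expression Console of Affymetrix (from the submitters' processing notes). Per the labels' protocols, RNA was biotin-labelled with a terminal labelling kit for whole transcripts. The sources used here give neither that program's version nor its normalization, and the log base was taken from the values, which reach 14.41. Since array medians are nearly equal, a shift common to most transcripts would not be seen. The number of arrays limits the precision. Of 29214 probe sets, the platform annotation gave 1 symbol for 15310, several for 323 and none for 13581. Genes were named only from probe sets with 1 symbol, updated through RefSeq (GRCr8).

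All 6 arrays were fitted in 1 model of 3 groups (limma 3.58.1 in R 4.3.3, with lmFit followed by eBayes, 3 residual and 2.16 prior degrees of freedom), with no filter. Benjamini-Hochberg adjustment ran over all probe sets, and 95% intervals come from the same fit. The fit was tested first on simulated data with changes planted in the Curdlan group, 50 of each size. It called 0 of those of 0.25 log2 units, 20 of 0.5, 35 of 1.0 and 46 of 2.0. A further 3 probe sets without a planted change were called. Spreads were shuffled among probe sets there, so these counts may not hold for genes of a given signal. At most 39 values were identical between any 2 arrays, so no array was a duplicate. The replicate numbers of the titles gave no sign of a strong shared effect: deviations from group means correlated at -0.115, -0.00454 and 0.113 between groups. This cannot show that the arrays were unpaired.

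The genes and lists were chosen with earlier results of these data known. Named were all genes of the set and, of each further list and comparison, up to 4 called genes with the largest change whose arrays did not overlap. Ppp1r15a, Nupr1 and Stc2, and uncalled genes of the set given array by array other than Xbp1 and Atf6, were chosen after their values were seen. The letters of the promoter elements were also set after the values were seen. Alternatives were quantile normalization, median centring, a filter on low signals, a mean-variance trend, a fit of 4 arrays, a replicate block, a threshold of 0.01, the mean over probe sets and leaving out each array. No protein sequences were used here.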

Additional observations from a re-analysis of the deposited data

How the results depend on the processing

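Of all probe sets, 465 were called with Curdlan, 78 at a threshold of 0.01, 1572 in a fit of probe sets brighter than the median, 1557 with a mean-variance trend, 68 in the fit of 4 arrays and 32 to 68 without a single array. Between R406 plus Curdlan and Curdlan 2118 were called, and in the same order 561, 3717, 3767, 1232 and 210 to 1232. Between R406 plus Curdlan and control 652 were called, and in the same order 66, 2278, 2341, 182 and 15 to 182. Of the 30 genes, those lower with Curdlan numbered 1 (Herpud1), and 2 (with Dnajb9) after quantile normalization, in the fit of brighter probe sets and with a mean-variance trend. Those higher under R406 than with Curdlan numbered 4, but 7 with a mean-variance trend, 5 (with Syvn1) in the fit of brighter probe sets, 3 at a threshold of 0.01 and 1 to 4 without a single array. Those higher than control under R406 plus Curdlan numbered 2, but 4 in the fit of brighter probe sets and with a mean-variance trend, 1 at a threshold of 0.01, 1 in the fit of 4 arrays and 0 to 1 without a single array. The causes were not tested, except that fits of fewer arrays have fewer degrees of freedom. Leaving out an array left its group with 1, which is then assumed to vary like the other groups.

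With the replicate block, 102, 1129 and 62 probe sets were called in the 3 comparisons in that order, and of the 30 genes 1 was lower with Curdlan, 3 were higher under R406 than with Curdlan and 0 were higher than control (limma, 4 at an unadjusted p under 0.05 in the fit without block). The titles' numbers do not show that the arrays are paired. Each of the 30 genes had 1 probe set, so the mean over probe sets gave the same values. For the 25 genes other than Syvn1 and the 4 called, 4 of 900 values under the alternatives passed, those of Erp44 and Edem2, 58 changed sign, and all lay between -0.12 and 0.19. No called value of the set changed sign under these alternatives.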
